A study of Mus musculus with 6 samples.

Results

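The 8 nuclear receptor genes described here were measured in mouse ovarian tumours, among 19937 genes that could be named on the arrays. They are the estrogen receptors Esr1 and Esr2, the progesterone receptor Pgr, the glucocorticoid receptor Nr3c1, the mineralocorticoid receptor Nr3c2, and the estrogen-related receptors Esrra, Esrrb and Esrrg. The members were picked by gene symbol. Each had 1 probe set annotated to that gene alone, and no other probe set named any of them. The tumours grew from MASE2 cells in SCID mice, hosts without mature T and B lymphocytes, and each was measured on 1 whole-transcript array. In the E2 group (n = 3) the mice carried 17β-estradiol pellets from the time the cells were injected, and in the placebo group (n = 3) they carried placebo pellets. All 6 tumours come from the same cell line, which was taken from the ascites of an E2-treated transgenic mouse in which Cre delivered by adenovirus into the ovarian bursa switches on the SV40 large and small T antigens. Tumours were collected when the mice reached loss of wellness, so the collection time followed the disease, and the labels give neither the day nor the age of the mice. Values are log2 intensities after RMA, a method that corrects background, equalises arrays and summarises probes. They are read here within a gene, since brightness on an array does not order different genes.

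Steroid receptors are transcription factors that a hormone switches on. In the absence of hormone, the receptors for glucocorticoids, mineralocorticoids and progesterone are held by heat shock chaperones, and on binding hormone they pair on DNA and recruit coactivators or corepressors. Estrogen acts mainly through the proteins of Esr1 and Esr2. Pgr is a classical target of the estrogen receptor in the uterus and the breast, so its transcript is often used there as a readout of estrogen action. The estrogen-related receptors resemble the estrogen receptors in sequence but do not bind estradiol, and they are known as regulators of mitochondrial and energy metabolism genes.

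The promoter of Pgr is shown because Pgr was the receptor gene that passed the test between the groups. The window runs from 250 bases before to 50 bases after a RefSeq start of the gene, at chr9:8899583-8899882 on the plus strand of GRCm38.p6, and capitals mark a GC box, the element bound by Sp1-type factors.
Pgr promoter: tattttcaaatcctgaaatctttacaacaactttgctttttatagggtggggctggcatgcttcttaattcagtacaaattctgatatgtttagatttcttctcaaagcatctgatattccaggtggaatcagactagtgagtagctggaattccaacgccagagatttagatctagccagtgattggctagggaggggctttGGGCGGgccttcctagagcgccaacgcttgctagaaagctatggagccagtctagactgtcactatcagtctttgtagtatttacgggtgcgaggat
The GC box, searched as GGGCGG on both strands, starts at position -47 in this window and occurs in 35.7% of 32851 RefSeq windows of the same length. The palindromic estrogen response element (GGTCA and its reverse complement TGACC, 3 bases apart, in 0.070% of all windows) had no match in the Pgr window. Nor did the glucocorticoid-type palindrome (GNACA and TGTNC, 3 bases apart, in 0.475%), the estrogen-related receptor element (TNAAGGTCA, in 1.28%) or the single repeat AGGTCA, which overlaps that element and is in 16.3% of all windows. RefSeq windows were at hand for 7 of the 8 receptor genes (12 windows in all, not for Nr3c1), and none of the 12 held any of these 4 elements. The GC box was in 5 of them, and the AP-1 site TGANTCA, in 7.81% of all windows, was in 1. A match or its absence describes these letters in this window only.

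The placebo replicate 3 array was unlike the others. Its Pearson r with the other arrays, across genes, was 0.857 to 0.865, against 0.960 to 0.994 among the other 5. All 15 genes of an intestinal lining list were highest there, with a list median of 10.8 log2 units against 4.36 to 4.70 on the E2 arrays and 4.43 and 4.56 on the other placebo arrays. Of the genes that mark ovarian surface epithelium and mesothelium, Wt1 measured 7.19, 7.37 and 7.69 on the E2 arrays. It measured 8.28, 8.29 and 6.37 on placebo arrays 1, 2 and 3 (log2 change -0.23, limma adjusted p = 0.856). Without placebo replicate 3, Wt1 fell in the E2 tumours (log2 change -0.87, limma adjusted p = 0.00852). Upk3b and Msln were dimmer on each E2 array than on each placebo array. Of the 10 genes of that list, Gata4 rose (1.61 log2 units, limma adjusted p = 0.0136), Krt7 fell (log2 change -2.36, adjusted p = 0.00445) and 8 did not pass. Of 5 markers of oviduct and uterine epithelium 0 passed. Pax2 (4.57 to 4.73) and Foxj1 (4.24 to 4.58) lay close to the arrays' lower quartile of genes (4.22 to 4.39), whereas Emx2 was brighter, at 5.94, 5.95 and 5.68 on the E2 arrays and 5.25, 5.59 and 4.60 on the placebo arrays (adjusted p = 0.251). Sox17 went the other way, lower on each E2 array than on each placebo array (log2 change -0.30, limma adjusted p = 0.228). Pax8 overlapped between the groups and was highest in placebo replicate 3 (5.52, against 4.86 to 5.01 on the E2 arrays). The receptor comparisons and the list counts are therefore given with and without placebo replicate 3.

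Across the 8 receptor genes, Pgr rose in the E2 tumours, 0 fell and 7 did not pass the test, which was a limma fit over all 19937 genes with Benjamini-Hochberg adjustment and a threshold of 0.05. Over all genes, 1.06% rose and 0.326% fell. At an unadjusted p under 0.05 in the same limma fit, 1 receptor gene was higher (Pgr) and 1 lower (Nr3c1), where 10.4% of all genes were higher and 6.16% lower. When placebo replicate 3 was left out, Pgr rose and Nr3c1 fell, where 6.4% of all genes rose and 5.21% fell. Esr1 and Pgr were higher, and Nr3c1 lower, on every E2 array than on every placebo array, a separation that 14.9% of all genes showed upward and 11.4% downward. The median change of the 8 genes was -0.043 log2 units, beside -0.0087 for all genes, and 0.030 beside -0.011 without placebo replicate 3.

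**Figure D1:**
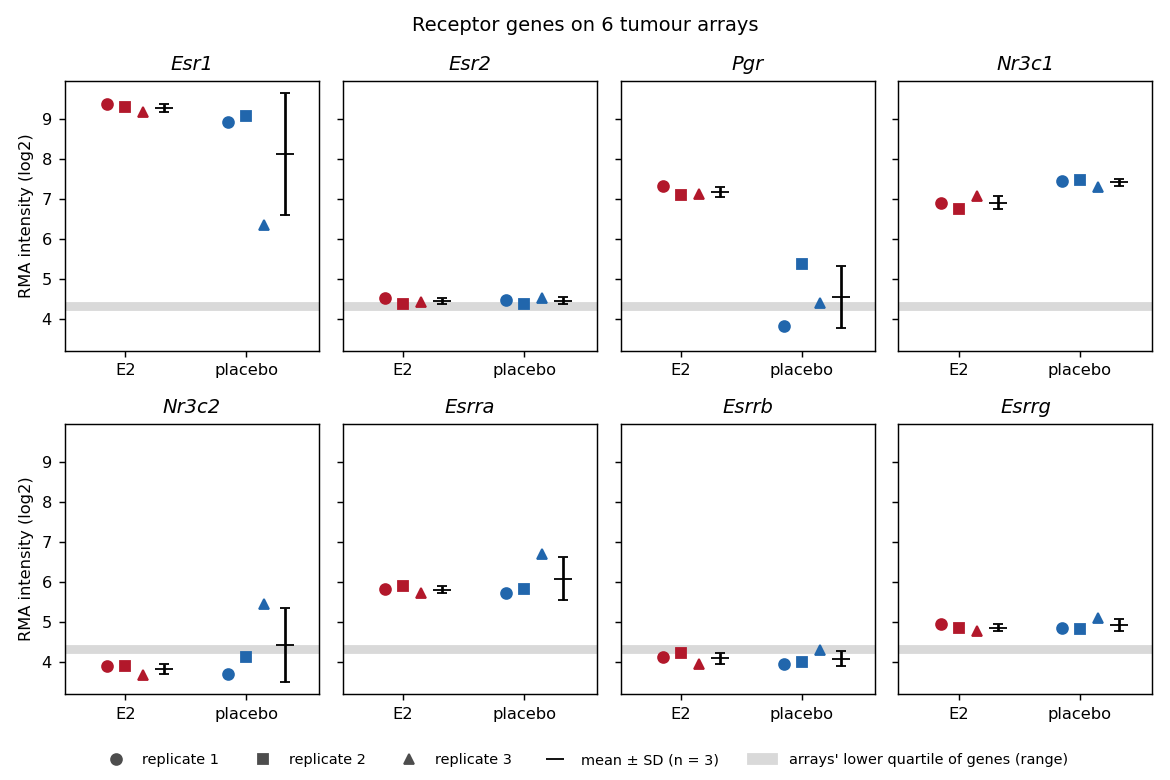
RMA intensity (log2, vertical axis, the same in every panel) of the 8 receptor genes in each tumour, with E2 tumours in red on the left and placebo tumours in blue on the right of each panel, marker shapes for replicates and bars for mean ± SD (n = 3). The grey band spans the arrays' lower quartiles of genes (4.22 to 4.39). Pgr separates the groups most clearly, and the triangle of placebo replicate 3 lies apart for Esr1, Nr3c2 and Esrra.

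Pgr measured 7.31, 7.09 and 7.12 log2 units in the E2 tumours and 3.83, 5.36 and 4.40 in the placebo tumours. The E2 tumours lay close together and all above the placebo tumours, which spread over more than 1.5 log2 units. The means were 7.17 ± 0.12 with E2 and 4.53 ± 0.77 with placebo (SD, n = 3 each). Pgr rose by 2.64 log2 units (standard error 0.37, 95% confidence interval 1.73 to 3.56), or 6.24-fold, and passed limma with an adjusted p of 0.0376. An exact two-sided permutation test over the 6 arrays gave p = 0.10, the smallest that 3 against 3 allows.

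The placebo level of Pgr was near the dim end of the arrays. Placebo replicate 1 lay below its array's lower quartile of genes, and with that value raised to the quartile the difference was 2.48 log2 units. Another mark of dimness, chosen after the values were seen, was the 95th percentile of 1015 olfactory receptor genes, which tissues outside the nose rarely transcribe. It lay at 4.40 to 4.48 on the E2 arrays and 4.47 to 4.55 on the placebo arrays. Pgr was above it on 3 of 3 E2 arrays and 1 of 3 placebo arrays. On the 5 arrays other than placebo replicate 3 the log2 change was 2.58 (adjusted p = 0.00437). The call did not hold without placebo replicate 1 (2.29, adjusted p = 0.0805) or without E2 replicate 1 (2.57, adjusted p = 0.177), 2 (2.68, adjusted p = 0.199) or 3 (2.67, adjusted p = 0.185).

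Esr1, which encodes estrogen receptor alpha, measured 9.36, 9.29 and 9.17 log2 units in the E2 tumours and 8.92, 9.06 and 6.35 in the placebo tumours. Every E2 tumour lay above every placebo tumour, and the value of placebo replicate 3 was 2.64 under the mean of the other placebo tumours. The difference of 1.17 log2 units (standard error 0.72, 95% confidence interval -0.59 to 2.93) did not pass the test (limma adjusted p = 0.475). Most of its size came with 1 array, since without placebo replicate 3 it was 0.29 (standard error 0.10, 95% confidence interval 0.05 to 0.52, adjusted p = 0.125). The exact permutation p was 0.10. On the other 5 arrays Esr1 stayed within 0.44 log2 units.

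Esr2, which encodes estrogen receptor beta and is best known in the ovary from granulosa cells, measured 4.52, 4.37 and 4.41 in the E2 tumours and 4.47, 4.36 and 4.52 in the placebo tumours. The groups overlapped. The difference was -0.01 log2 units (95% confidence interval -0.23 to 0.20, limma adjusted p = 0.953), and 0.02 without placebo replicate 3 (adjusted p = 0.932). All 6 values were above the lower quartile of genes, and 2 E2 arrays and 0 placebo arrays exceeded the olfactory receptor mark, so a transcript level above background was not shown.

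Nr3c1, the glucocorticoid receptor gene, measured 6.90, 6.74 and 7.07 in the E2 tumours and 7.45, 7.47 and 7.30 in the placebo tumours. All E2 tumours lay below all placebo tumours, and here placebo replicate 3 was not apart, 0.16 log2 units under the mean of the other placebo tumours. The means were 6.90 ± 0.17 with E2 and 7.40 ± 0.09 with placebo (SD, n = 3 each). The difference of -0.50 log2 units (standard error 0.11, 95% confidence interval -0.78 to -0.22), or 0.707-fold, did not pass on 6 arrays (limma adjusted p = 0.109). It passed when placebo replicate 3 was left out, where Nr3c1 fell by 0.55 log2 units (adjusted p = 0.0209). The exact permutation p was 0.10.

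Nr3c2, the receptor for aldosterone in kidney and colon epithelium, measured 3.90, 3.89 and 3.67 in the E2 tumours and 3.70, 4.12 and 5.45 in the placebo tumours. The value of placebo replicate 3 alone was above its array's lower quartile of genes, with the other 5 below theirs, and was 1.54 log2 units over the mean of the other placebo tumours. The difference of -0.60 log2 units (95% confidence interval -1.67 to 0.47, limma adjusted p = 0.536) was -0.09 without that array (95% confidence interval -0.42 to 0.25, adjusted p = 0.785).

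**Figure D2:**
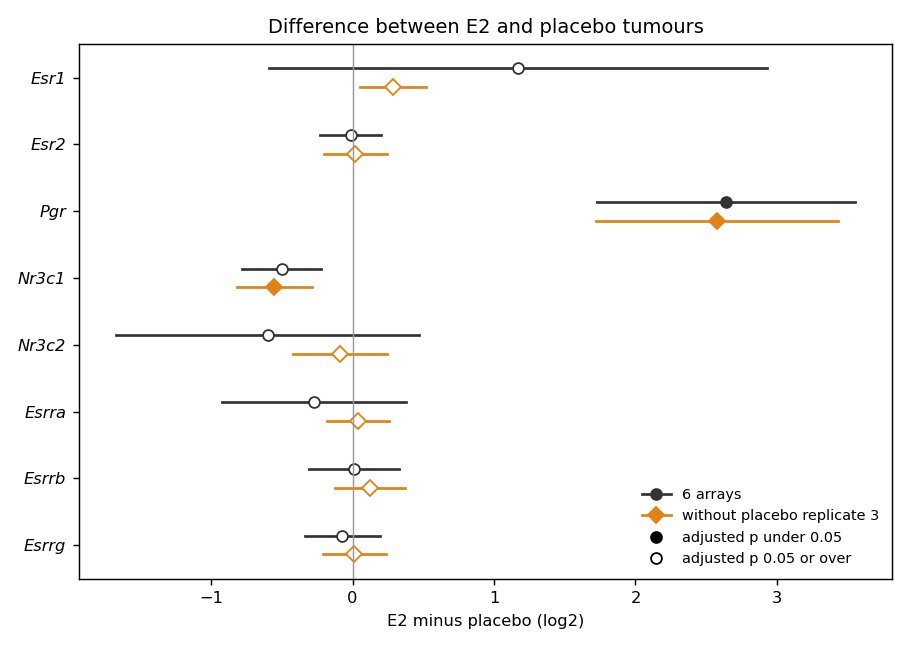
Difference between E2 and placebo tumours (E2 minus placebo, log2, horizontal axis) for each receptor gene, with 95% confidence intervals from limma, on 6 arrays (dark circles) and without placebo replicate 3 (orange diamonds). Filled symbols passed an adjusted p of 0.05. Pgr passed in both fits, Nr3c1 in the second, and the intervals of Esr1, Nr3c2 and Esrra narrow once that array is left out.

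Among the estrogen-related receptors, Esrra, which acts with the coactivators of the Ppargc1 family on mitochondrial genes, measured 5.81, 5.89 and 5.73 in the E2 tumours and 5.73, 5.81 and 6.71 in the placebo tumours. The other 5 arrays lay within 0.16 log2 units, and placebo replicate 3 was 0.94 over the mean of the other placebo tumours. The difference was -0.27 log2 units (95% confidence interval -0.93 to 0.38, limma adjusted p = 0.633), and 0.04 without that array (95% confidence interval -0.18 to 0.26, adjusted p = 0.858).

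Esrrb, known from embryonic stem cells and placenta, measured 4.11, 4.21 and 3.95 in the E2 tumours and 3.94, 4.01 and 4.30 in the placebo tumours. It was below the lower quartile of genes on all 6 arrays and was not shown to be above background. Its difference was 0.01 log2 units (95% confidence interval -0.31 to 0.33, limma adjusted p = 0.972), and 0.12 without placebo replicate 3 (adjusted p = 0.554). Esrrg, known from heart, muscle and other tissues with high energy use, measured 4.95, 4.84 and 4.77 in the E2 tumours and 4.85, 4.83 and 5.10 in the placebo tumours. The groups overlapped for both genes. The Esrrg difference was -0.07 log2 units (95% confidence interval -0.34 to 0.19, limma adjusted p = 0.762), and placebo replicate 3 again held the highest value. Without that array the Esrrg difference was 0.01 (limma adjusted p = 0.958).

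The Esr1, Nr3c2 and Esrra values of placebo replicate 3 stood beside other differences of that array. Nr3c2 and Esrra were highest there together with all 15 intestinal genes, and Esr1 was lowest there. Esrrb (4.30) and Esrrg (5.10) were also highest there, as were 16 of 36 other nuclear receptor genes. The share of all genes that were highest on that array was not counted. The median of 6 skeletal muscle genes was also lowest in placebo replicate 3, at 5.06. It was 7.23, 6.66 and 9.53 in E2 replicates 1, 2 and 3, and 6.53 and 9.26 in placebo replicates 1 and 2. E2 replicate 3 and placebo replicate 2 were thus highest for these genes. Ckm of this list is also listed as a target of the estrogen-related receptors. A list of 8 smooth muscle genes had its highest median in placebo replicate 3, at 7.74. That median was 5.91 to 6.29 in the E2 tumours and 5.71 and 6.24 in the other placebo tumours. The part of these genes' tissues in the receptor values was not tested.

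**Figure D3:**
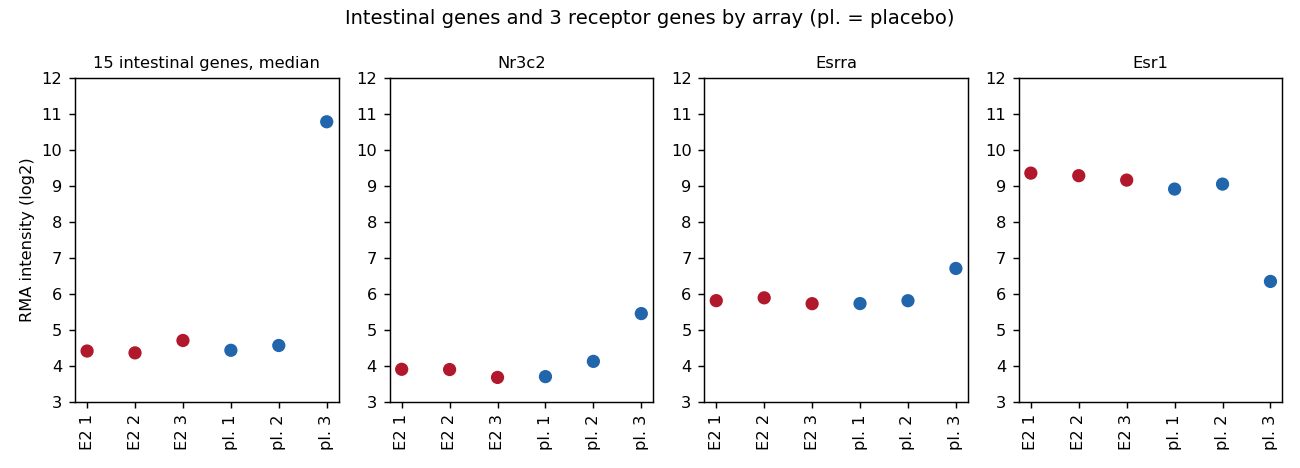
RMA intensity (log2) on each array, E2 tumours in red and placebo tumours in blue, for the median of 15 intestinal lining genes and for Nr3c2, Esrra and Esr1. Placebo replicate 3 holds the highest intestinal median (10.8), the highest Nr3c2 (5.45) and Esrra (6.71) and the lowest Esr1 (6.35).

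Pgr, Esr1 and Nr3c2 varied over the 6 arrays with an SD of at least 0.5, and for each the most similar patterns were ranked by Pearson r among 2133 other genes with as large an SD. For Pgr they were Galnt13 (r = 0.997), Emb (0.994) and Tacc1 (0.993), which all rose in the E2 tumours, by 1.53, 3.00 and 2.01 log2 units. For Esr1 they were Trip6 (0.999), Calcoco1 (0.997) and Nrm (0.997), none of which passed the test and which lay 1.13 to 1.36 log2 units lower in placebo replicate 3 than in the other placebo tumours. For Nr3c2 they were Nr1h4 (0.995), which encodes the bile acid receptor, Efna1 (0.994) and Tpsg1 (0.993), none of which passed and which lay 1.40 to 2.43 higher in that tumour. These r values describe 6 arrays, and a separation of the groups or 1 outlying array is enough to give a high r.

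Genes around the receptors were read from 10 lists covering the partners, the ligands and the targets of the receptors, with 148 of 164 genes measured. Some genes are in several lists, so the counts of the lists are not separate. Esrra itself is in the list of estrogen-related receptor targets. A change of a list is described by its counts and by its median beside the median of all genes (-0.0087 log2 units, or -0.011 without placebo replicate 3). The shares of all genes given above, 1.06% rising and 0.326% falling, and 10.4% higher and 6.16% lower at an unadjusted p under 0.05, stand beside each list's counts on 6 arrays, as 6.4% and 5.21% do without placebo replicate 3.

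In the list of estrogen receptor targets, 4 of 17 genes rose in the E2 tumours and 0 fell, with a median of 0.06. At an unadjusted p under 0.05 in limma, 6 were higher and 2 lower. Greb1, an estrogen receptor cofactor and early target, rose by 3.41 log2 units (standard error 0.16, adjusted p = 0.00131) and passed in each of the 6 fits that left out an array. Stc2, a secreted glycoprotein, rose by 1.90 (standard error 0.20, adjusted p = 0.0165). Cyp26a1, which degrades retinoic acid, rose by 1.23 (standard error 0.14, adjusted p = 0.0237), and the growth factor gene Igf1 by 1.48 (standard error 0.23, adjusted p = 0.0475). These 3 lost the call without placebo replicate 1 or any E2 array, with adjusted p up to 0.120, 0.131 and 0.225 and log2 changes of at least 1.75, 1.12 and 1.39. With placebo replicate 3 set aside, 8 of the 17 rose and 2 fell, for a median of 0.52. The falls were Ctsd (log2 change -0.79, limma adjusted p = 0.00188) and Cxcl12 (-0.70, limma adjusted p = 0.0349), named after their values were seen. On 6 arrays these did not pass (-0.24, limma adjusted p = 0.813, and -0.79, limma adjusted p = 0.109), though Cxcl12 was lower on each E2 array than on each placebo array.

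In the list of progesterone receptor targets, 1 of 16 genes rose and 0 fell, with a median of -0.15, and at an unadjusted p under 0.05 in limma 3 were higher and 4 lower. The gene was Ctsl, which encodes the protease cathepsin L (log2 change 1.69, standard error 0.21, adjusted p = 0.0290). It lost the call without placebo replicate 1 or any E2 array (adjusted p up to 0.169, log2 change at least 1.61). On the 5 arrays without placebo replicate 3, 3 rose and 4 fell.

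Glucocorticoid receptor targets had 1 rise among 18 genes and 0 falls (3 higher and 1 lower at an unadjusted p under 0.05 in limma), with a median of -0.03. Angptl4, an inhibitor of lipoprotein lipase known to be induced by glucocorticoids, rose by 0.80 log2 units (standard error 0.12, adjusted p = 0.0468). It lost the call without any 1 of the other 5 arrays (adjusted p up to 0.220) and kept it without placebo replicate 3. In that fit 5 of the 18 genes rose and 2 fell, for a median of 0.21. Mineralocorticoid receptor targets had 0 calls among 11 genes, with 0 higher and 1 lower at an unadjusted p under 0.05 in limma and a median of -0.05. The smallest p belonged to Scnn1a, a subunit of the epithelial sodium channel (-0.38 log2 units, adjusted p = 0.293), and Per1, a clock gene induced by corticosteroids (-0.77, adjusted p = 0.324). After leaving out placebo replicate 3, 1 rose and Per1 fell by 1.02 log2 units (limma adjusted p = 0.0437). The rise was that of Sgk1 (1.36 log2 units, limma adjusted p = 0.00116), named after its value was seen. Sgk1 and Per1 are also in the list of glucocorticoid receptor targets and are counted in its rises and falls.

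Targets of the estrogen-related receptors had 0 calls among 15 genes, with 3 higher and 1 lower at an unadjusted p under 0.05 in limma and a median of 0.20. Lipe, hormone-sensitive lipase, differed by -0.63 (adjusted p = 0.146) and Vegfa, the vascular growth factor, by 1.36 (adjusted p = 0.179). Leaving out placebo replicate 3 gave 6 rises and 1 fall, among them Vegfa (rise of 1.78, adjusted p = 0.00184) and Lipe (fall with a log2 change of -0.46, adjusted p = 0.0285). The median was then 0.36.

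**Figure D4:**
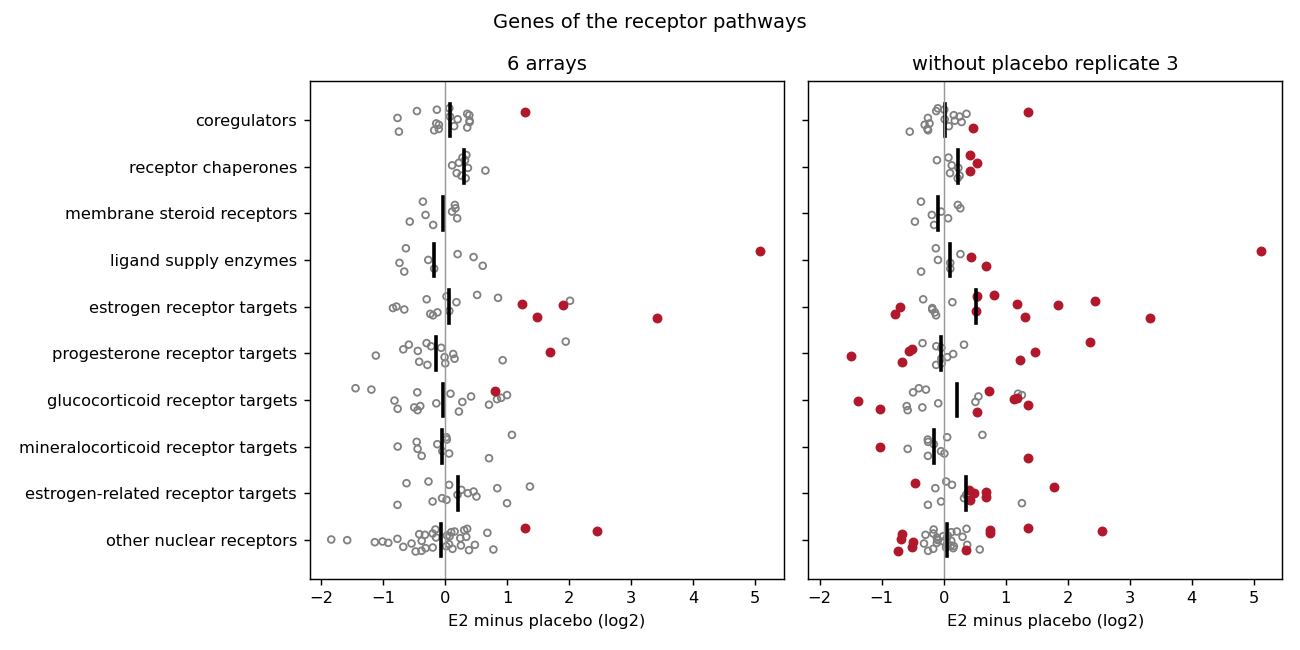
Difference between E2 and placebo tumours (E2 minus placebo, log2, horizontal axis) for each measured gene of the 10 lists, on 6 arrays (left) and without placebo replicate 3 (right). Filled red points passed a limma adjusted p of 0.05, open points did not, and black bars are list medians. Estrogen receptor targets hold 4 rises on the left and 8 on the right.

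Coregulators had 1 rise among 18 genes, 0 falls and a median of 0.07 (4 higher and 1 lower at an unadjusted p under 0.05 in limma). The gene was Nr0b2, an orphan receptor that lacks a DNA-binding domain and represses other nuclear receptors. It rose by 1.28 log2 units (standard error 0.10, adjusted p = 0.00708), and its adjusted p was 0.0699, 0.0617 and 0.0560 without E2 replicates 1, 2 and 3, with log2 changes of 1.28, 1.25 and 1.31. The 5 arrays without placebo replicate 3 gave 2 rises and 0 falls, the other being the corepressor gene Nrip1 (0.48, adjusted p = 0.0232), named after its value was seen.

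The chaperones that hold steroid receptors had 0 calls among 10 genes, with 4 higher and 0 lower at an unadjusted p under 0.05 in limma and a median of 0.30. Stip1, which links the heat shock proteins Hsp70 and Hsp90, differed by 0.65 (adjusted p = 0.191) and the cochaperone gene Bag1 by 0.34 (adjusted p = 0.237). Without placebo replicate 3, 3 rose and the median was 0.23. Fkbp5, among these rises, is also counted among the glucocorticoid receptor targets. Membrane receptors for progestins and estrogen had 0 calls among 8 genes in either fit, with 0 higher and 2 lower at an unadjusted p under 0.05 in limma. These were Pgrmc1, a heme-binding membrane protein (-0.57, adjusted p = 0.141), and Paqr9, of the progestin and adipoQ receptor family (-0.36, adjusted p = 0.261).

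Among the enzymes that make or remove receptor ligands, 1 of 9 genes rose and 0 fell, with a median of -0.18 (3 higher and 1 lower at an unadjusted p under 0.05 in limma). Akr1c18, which inactivates progesterone, the ligand of the Pgr protein, rose by 5.07 log2 units as measured (standard error 0.13, adjusted p = 0.000223). Its 3 placebo values lay below their arrays' lower quartile of genes, and against that floor the rise was at least 25.6-fold. Probes of close relatives in the Akr1c family may share sequence, so its separate value is uncertain. Without placebo replicate 3, 3 of the 9 rose and the median was 0.11.

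Other nuclear receptor genes had 2 rises among 36 and 0 falls, with a median of -0.07, and at an unadjusted p under 0.05 in limma 7 were higher and 4 lower. Beside Nr0b2, which is in both lists, Nr5a1, the steroidogenic factor of gonad and adrenal, rose by 2.45 log2 units (standard error 0.20, adjusted p = 0.00731). It lost the call without E2 replicate 3 (adjusted p = 0.0674). Without placebo replicate 3, 5 of the 36 rose and 5 fell.

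Marker levels of other cell types are given beside Pgr and Nr3c1. Of 9 macrophage genes 0 passed the test on 6 arrays. Their median level was 5.89 to 6.96 log2 units in the E2 tumours and 7.78, 7.92 and 6.66 in placebo replicates 1, 2 and 3. This median level overlapped between the groups only through placebo replicate 3. For 10 genes of ovarian surface epithelium and mesothelium it was 6.40 to 6.73 with E2 and 6.86 to 8.06 with placebo, for 8 endothelial genes 5.13 to 5.29 with E2 and 5.46 to 5.76 with placebo, and for 9 granulosa and steroidogenic genes 5.17 to 5.57 with E2 and 4.47 to 4.60 with placebo. For 7 adipocyte genes it was 4.39 to 4.55 with E2 and 4.93 to 5.10 with placebo, and for 8 fibroblast genes 7.91 to 8.33 with E2 and 8.34 to 8.80 with placebo. These 5 medians did not overlap between the groups, the fibroblast one by a narrow margin. There were 11 marker lists in all. The liver median (7 genes, 0 passing) did not overlap either, at 4.16 to 4.33 with E2 and 4.39 to 4.43 with placebo. The intestinal, smooth muscle, skeletal muscle, and oviduct and uterine medians overlapped. Among single genes, 14.9% of all genes separated upward and 11.4% downward. Of single genes, 4 granulosa and steroidogenic genes rose, namely Inha, Cyp11a1, Hsd3b1 and Nr5a1, the last also counted above among the nuclear receptors. The other 5 did not pass. Their log2 changes were 0.97 for Star, 0.59 for Cyp17a1, -0.011 for Fshr, -0.014 for Foxl2 and -0.18 for Amh. Adipoq, an adipocyte gene, fell, and 0 endothelial and 0 fibroblast genes passed. The epithelial and mesothelial list held the rise of Gata4 and the fall of Krt7 given above. Without placebo replicate 3, 6 macrophage, 4 endothelial, 5 adipocyte, 4 fibroblast, 1 liver, 1 smooth muscle and 5 epithelial and mesothelial genes fell. In that fit 6 granulosa and steroidogenic, 1 fibroblast, 1 smooth muscle and 1 epithelial and mesothelial gene rose. Over all genes 6.4% rose and 5.21% fell in it. In whole tumours, fewer cells of a type and less RNA per cell cannot be told apart, and the part of these cell types in the receptor values was not tested.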

How the data were processed

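RNA of 6 tumours was measured on whole-transcript arrays, and the sample titles gave each group and replicate number. The authors deposited log2 intensities from RMA, according to the submitters' processing notes, whose software and version are not stated there. RMA compresses changes near background. Of 34760 probe sets, 21640 had 1 gene symbol, 1321 several and 11799 were unnamed here. The probe set with the highest mean stood for a gene, leaving 19937 genes, and names were matched to RefSeq (GRCm38.p6). The groups were compared with two-sided limma tests (limma 3.58.1, R 4.3.3) without covariates and with Benjamini-Hochberg adjustment over all genes. The number of arrays limits the precision, and the labels name no array batch. No dim gene was removed and no detection call was used, so each array's lower quartile of genes served as a mark of dimness. The replicates are called biological by the series' design text.

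The receptor genes, the lists and the marker genes were chosen with earlier results of these data known, so their counts are descriptions. Named genes were the 8 receptors, up to 5 called members of each list by smallest p (or the 2 of smallest p where none passed), and the 3 genes most like each receptor with an SD of at least 0.5 over the arrays. Predicted genes and clones were left out of that ranking. Motifs were chosen and searched in RefSeq promoter windows with the values known. Alternatives were to leave out each array, the replicate number as a block, a filter at the 25th percentile of gene means, probe sets averaged within a gene, median centring, repeated quantile normalization, a trended robust variance and array weights. The limma step was tested on simulated data. The simulation drew each gene separately and held no outlying array. It therefore does not show how calls behave with an array like placebo replicate 3.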

Additional observations from a re-analysis of the deposited data

How the results depend on the processing

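With 3 arrays a group, calls depended on single arrays. Leaving out each array gave log2 changes of 2.29 to 3.06 for Pgr, 0.29 to 1.64 for Esr1, -0.96 to -0.086 for Nr3c2, -0.59 to -0.42 for Nr3c1, -0.059 to 0.021 for Esr2, -0.45 to 0.040 for Esrra, -0.059 to 0.12 for Esrrb and -0.12 to 0.013 for Esrrg, 0 to 1 receptor genes called higher and 0 to 1 called lower, and 31 to 1276 genes called higher and 0 to 1039 lower over all genes, beside 211 and 65 on 6 arrays. The 0 lower genes, in limma without E2 replicate 1, stand beside 917 lower at an unadjusted p under 0.05. With the replicate block, Pgr changed by 2.64 log2 units without passing (adjusted p = 0.176), 0 receptor genes, 10 higher and 0 lower genes were called in limma (1524 and 886 at an unadjusted p under 0.05, 1 receptor gene each way), and Greb1 missed the threshold (adjusted p = 0.0514). The numbers share no stated origin, and the deviations of same-numbered arrays correlated at -0.029, -0.18 and -0.13. Array weights gave 1026 higher and 760 lower genes, Nr3c1 lower by a passing -0.57 (1 receptor gene called lower), and values of 0.015 for Esr2, 0.0027 for Esrra and 0.011 for Esrrg. Repeated quantile normalization gave a passing -0.64 for Nr3c1 (1 receptor gene called lower), 0.079 for Esr2 and 0.0087 for Esrrg. Median centring gave 342 higher genes and 80 lower, with Esr2 at 0.032. The cause of these shifts was not tested. The sign changes were in differences that never passed. Nr3c2, Esrrb and Paqr9 could not be tested after dropping dim genes. Over the lists, 382 of 480 gene changes and counts kept direction and side of the threshold (counts, stayed within 1.5 times), 35 lost a call, 9 gained one and 54 counts moved. Of 130 list medians 9 moved by more than the spread between replicates and 15, in 6 lists, changed sign. Dim signal limits Esr2, Esrrb, Nr3c2 and the placebo values of Pgr.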
